A study of Mus musculus with 2 samples.

Results

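Integrins are the adhesion receptors with which T cells hold on to other cells and to extracellular matrix, and 9 integrin chain genes were followed here in mouse regulatory T (Treg) cells. The genes were picked by symbol, 5 alpha chains (Itgae, Itga4, Itgal, Itgav and Itga6) and 4 beta chains (Itgb7, Itgb1, Itgb2 and Itgb8), out of 32285 features measured in each library. All 9 were present in the files, and all 9 passed a filter of a mean of 10 CPM (UMIs scaled to a total of 1000000) over both libraries. Treg cells are T cells that depend on the transcription factor Foxp3 and restrain other immune cells. They had been sorted by flow cytometry into a mitochondria-high group, labelled Mito-High, and a mitochondria-low group, labelled Mito-Low. Each group gave 1 library, made from 12000 sorted cells with the 10x Genomics 5′ single-cell chemistry, in which every captured RNA molecule carries a unique molecular identifier (UMI). Neither group carries a genotype, treatment or time in the labels. The sources used here give no tissue, strain, sex, age or number of animals.

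In Mito-High 12352 barcodes carried 89996794 UMIs, and in Mito-Low 11901 barcodes carried 60688904. Cells with at least 500 genes and at most 20% mitochondrially encoded UMIs were kept, 12217 in Mito-High with a median of 6132 UMIs and 11679 in Mito-Low with a median of 4668 UMIs. The libraries share 38 barcodes, 35 of them among kept cells. With 1 library per group there is no replicate, so no difference could be set against a spread between samples, and no test was made. Intervals in parentheses are 95% intervals for counting error alone. At least 2 of 8 Treg markers, most of which activated T cells can also express, were detected in 11932 Mito-High and 11517 Mito-Low cells. Foxp3 itself was detected in 1953 Mito-High and 2026 Mito-Low cells, at 25.8 CPM in Mito-High cells, against 41.0 CPM in Mito-Low cells. Summed B cell markers reached 19.1 CPM in Mito-High cells, against 17.0 CPM in Mito-Low cells, NK cell markers 0.69 and 0.88 CPM, and of 4 platelet markers 3 were at 0 in Mito-High cells and 4 in Mito-Low cells. Summed myeloid markers stood at 84.0 CPM in Mito-High cells, against 106.0 CPM in Mito-Low cells, with at least 2 of the 7 markers in 121 and 74 cells. Cst3 alone gave 80.4 and 102.8 CPM of these sums. The 4 epithelial or stromal markers summed to 9.86 and 39.0 CPM, nearly all of it Epcam (9.56 and 38.7 CPM). Krt8 was at 0 in both libraries, and Col1a1 measured 0.27 and 0.28 CPM, so the sum speaks for Epcam and not for the list. The 4 markers of conventional CD4 T cells summed to 284 CPM in Mito-High cells, against 429 CPM in Mito-Low cells, but did not move as one. Il7r (150 and 359 CPM) and Cd40lg (12.6 and 23.2 CPM) were lower in Mito-High, whereas Nsg2 (106 and 43.0 CPM) and Dapl1 (15.4 and 3.11 CPM) were higher, and at least 2 of the 4 were detected in 27.5% of Mito-High cells and 14.9% of Mito-Low cells. Malat1, a nuclear transcript, measured 9589.5 CPM in Mito-High cells, against 18093 CPM in Mito-Low cells. The part of any other cell types behind these markers and of the Malat1 difference in the integrin values was not tested.

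An integrin is a pair of one alpha and one beta chain, and a chain reaches the cell surface only with a partner. Itgae pairs with Itgb7 in the receptor for E-cadherin that holds lymphocytes in epithelia, and Itga4 pairs with Itgb7 in the gut homing receptor for MAdCAM-1 or with Itgb1 in the receptor for VCAM-1 and fibronectin. Itgal and Itgb2 form LFA-1, the receptor for ICAM proteins. Itgav and Itgb8 form the receptor with which Treg cells can free active TGF-beta from its latent complex, and Itga6 with Itgb1 binds laminins.

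The promoters of 4 chains that were at least 1.5-fold lower in Mito-High are shown beside that of Itgb7, which was not. Of the 9 genes, these 5 had an entry in the RefSeq promoter table (GRCm38.p6), which runs from 250 bases before the annotated start to 50 bases after it. Capitals mark matches to motifs searched on both strands.
Itgav: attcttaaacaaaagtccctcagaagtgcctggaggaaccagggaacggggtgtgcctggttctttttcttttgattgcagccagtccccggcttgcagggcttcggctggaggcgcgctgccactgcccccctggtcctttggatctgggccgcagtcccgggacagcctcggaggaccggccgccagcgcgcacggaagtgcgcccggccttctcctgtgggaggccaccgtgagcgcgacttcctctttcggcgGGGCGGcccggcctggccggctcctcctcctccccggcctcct
Itgb1: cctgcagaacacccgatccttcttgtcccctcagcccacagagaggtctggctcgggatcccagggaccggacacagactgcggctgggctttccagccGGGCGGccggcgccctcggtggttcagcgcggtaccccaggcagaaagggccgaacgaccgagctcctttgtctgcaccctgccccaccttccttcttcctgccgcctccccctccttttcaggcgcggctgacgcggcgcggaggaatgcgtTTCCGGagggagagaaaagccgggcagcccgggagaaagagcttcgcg
Itga4: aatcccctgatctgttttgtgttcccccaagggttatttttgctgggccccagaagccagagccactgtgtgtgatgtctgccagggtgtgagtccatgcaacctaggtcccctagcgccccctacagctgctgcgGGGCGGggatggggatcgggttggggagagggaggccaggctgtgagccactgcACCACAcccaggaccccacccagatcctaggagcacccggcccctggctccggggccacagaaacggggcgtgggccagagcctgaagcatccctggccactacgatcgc
Itgb8: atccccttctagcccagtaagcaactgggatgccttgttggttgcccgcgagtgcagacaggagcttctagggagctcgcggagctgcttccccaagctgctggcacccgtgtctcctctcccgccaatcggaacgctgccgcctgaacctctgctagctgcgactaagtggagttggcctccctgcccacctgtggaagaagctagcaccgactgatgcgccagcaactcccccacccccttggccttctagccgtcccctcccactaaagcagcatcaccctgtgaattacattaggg
Itgb7: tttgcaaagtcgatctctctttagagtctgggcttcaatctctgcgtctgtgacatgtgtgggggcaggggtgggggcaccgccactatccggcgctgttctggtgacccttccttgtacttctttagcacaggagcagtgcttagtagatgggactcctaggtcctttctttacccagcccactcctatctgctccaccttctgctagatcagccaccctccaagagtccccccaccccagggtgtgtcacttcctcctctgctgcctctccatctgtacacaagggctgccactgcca
The windows are chr2:83724147-83724446 (plus strand) for Itgav, chr8:128685404-128685703 (plus strand) for Itgb1, chr2:79255176-79255475 (plus strand) for Itga4, chr12:119238227-119238526 (minus strand) for Itgb8 and chr15:102231886-102232185 (minus strand) for Itgb7. The Itgav and Itgb1 windows held 24 and 27 CpG dinucleotides, the Itga4 and Itgb8 windows 10 and 13 and the Itgb7 window 5, against a median of 7 over 32851 promoters. GC content was 67.3% in both Itgav and Itgb1, 64.3% in Itga4, 60.7% in Itgb8 and 56.3% in Itgb7, with a median over all promoters of 52.7%. A GC box (GGGCGG, found in 35.7% of promoters) lay 7 bases after the start in Itgav, 151 bases before it in Itgb1 and 114 bases before it in Itga4. Itga4 also held a RUNX motif (TGTGGT, 16.8% of promoters) on the minus strand, 60 bases before the start. Itgb1 held an ETS motif (CCGGAA, 14.9% of promoters) on the minus strand, 2 bases after the start. Neither the AP-1 letters TGANTCA (7.81% of promoters) nor the TATA letters TATAAA (13.6%) were in these 5 windows, and the Itgb8 and Itgb7 windows held none of the 5 motifs. A match of letters describes these windows and shows no binding.

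Taken over all kept cells, most of these chains were lower in Mito-High than in Mito-Low cells. Itgae, Itga4, Itgb1, Itgav and Itgb8 were lower by at least 1.5-fold, Itgb7 and Itgal were lower by less, Itgb2 was level and Itga6 was higher by slightly less than 1.5-fold. Of the 9 members, 5 were thus at least 1.5-fold lower, where 10.3% of 7358 genes at a mean of 10 CPM or more were, and 0 were at least 1.5-fold higher, where 3.47% of genes were. The members' median log2 ratio between the libraries (Mito-High over Mito-Low) was -0.80, and that of all 7358 genes was -0.15, with 95% of genes between -1.13 and 0.70. The sort into groups is the study's design, and the 2 libraries also differ in depth, so an effect of the sort and one of the library cannot be told apart.

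**Figure D1:**
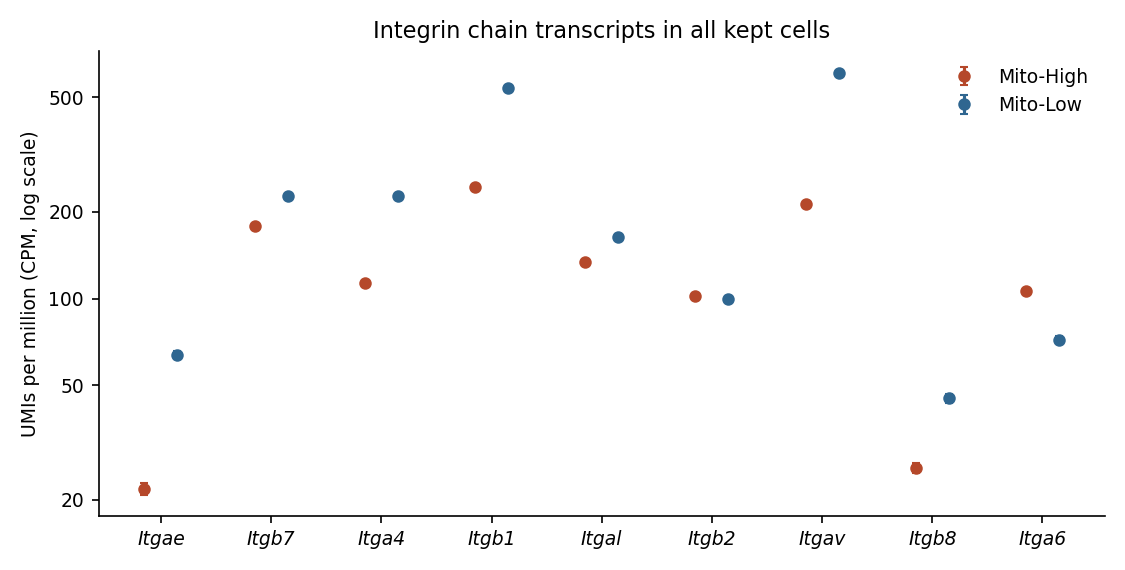
CPM of the 9 integrin chains over all kept cells on a log axis, Mito-High left of Mito-Low for each gene, with 95% Poisson intervals that are mostly smaller than the symbols. Itgav stands at 213 CPM in Mito-High cells, against 607 CPM in Mito-Low cells, whereas the Itgb2 values of 102 and 99.9 CPM nearly coincide.

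Both chains that pair with Itgb7 were lower in Mito-High cells, and Itgb7 much less so. Itgae, the chain known as CD103 (chr11:73090583-73147446, GENCODE M21 on GRCm38), measured 21.8 CPM (20.8 to 22.8) in Mito-High cells, against 63.6 CPM (61.6 to 65.6) in Mito-Low cells, from 1960 and 3848 UMIs. Its log2 ratio was -1.54 (-1.62 to -1.47). Itgb7, the beta chain it needs (chr15:102215995-102231944), measured 178 CPM (176 to 181) in Mito-High cells, against 228 CPM (224 to 231) in Mito-Low cells, a log2 ratio of -0.35 (-0.39 to -0.32). The alpha chain therefore differed between the libraries far more than its only partner. Itga4 (chr2:79255426-79333123), which Itgb7 and Itgb1 share, measured 113 CPM (111 to 116) in Mito-High cells, against 228 CPM (224 to 232) in Mito-Low cells, a log2 ratio of -1.01 (-1.05 to -0.97). 

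The beta chain Itgb1 and its alpha chains did not move as one. Itgb1 (chr8:128685654-128733200), the partner of many alpha chains, measured 244 CPM (241 to 247) in Mito-High cells, against 540.3 CPM (534 to 546) in Mito-Low cells, a log2 ratio of -1.15 (-1.17 to -1.12). Itga6 (chr2:71745616-71858416), a laminin receptor chain, went the other way, with 106 CPM (104 to 108) in Mito-High cells, against 72.1 CPM (69.9 to 74.2) in Mito-Low cells, a log2 ratio of 0.56 (0.51 to 0.61). Itga6 was the one member higher in Mito-High beyond counting error. It lay just inside the 1.5-fold mark (0.585 on the log2 scale) and past it under 7 of the alternatives, TMM scaling among them (0.75), with values up to 0.83, and its difference vanished when the cell states were weighted alike.

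Itgav and Itgb8, the pair that acts on latent TGF-beta, were both lower in Mito-High cells. Itgav (chr2:83724397-83806916) measured 213 CPM (210.0 to 216) in Mito-High cells, against 607 CPM (601 to 613) in Mito-Low cells, from 19152 and 36727 UMIs, a log2 ratio of -1.51 (-1.54 to -1.48). Itgb8 (chr12:119158022-119238802), which pairs only with Itgav, measured 25.7 CPM (24.7 to 26.8) in Mito-High cells, against 45.0 CPM (43.3 to 46.7) in Mito-Low cells, a log2 ratio of -0.80 (-0.89 to -0.72). Gm13684 overlaps Itgav on the opposite strand and had 2720 UMIs among Mito-High cells and 5516 among Mito-Low cells. Haspin overlaps Itgae (169 and 131 UMIs) and Cerkl overlaps Itga4 (379 and 348 UMIs) in the same way. The sources used here do not say whether counting used strand, and without it reads of such partners cannot be told apart.

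Of the pairs, LFA-1 differed least. Itgal (chr7:127296260-127335138) measured 134 CPM (131 to 136) in Mito-High cells, against 164 CPM (161 to 167) in Mito-Low cells, a log2 ratio of -0.29 (-0.33 to -0.25). Itgb2 (chr10:77530252-77565708), the beta chain of leukocyte integrins, measured 102 CPM (99.9 to 104) in Mito-High cells, against 99.9 CPM (97.4 to 102) in Mito-Low cells, a log2 ratio of 0.03 (-0.02 to 0.08). The Itgb2 interval includes no difference, and its bounds are narrow.

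The share of cells with at least 1 UMI of a chain gave the same picture once depth was matched. For this, 2000 UMIs were drawn at random from each cell, and the shallower cells, 139 of Mito-High and 491 of Mito-Low, were dropped. After thinning, Itgav was detected in 24.2% of Mito-High cells and 55.5% of Mito-Low cells, Itgb1 in 24.6% and 52.3%, and Itga4 in 17.4% and 30.2%. Itgae was detected in 3.52% of Mito-High cells and 10.2% of Mito-Low cells and Itgb8 in 4.20% and 7.20%. Itga6 alone was detected in clearly more Mito-High cells, 18.6% against 12.3% in Mito-Low, while Itgb2 was found in 17.9% and 17.4%. Unthinned, Itgav was detected in 44.9% of Mito-High cells and 72.4% of Mito-Low cells. The other unthinned shares, given alike, were 43.1% and 71.3% for Itgb1, 39.8% and 49.6% for Itga4, 8.66% and 18.3% for Itgae, 12.2% and 15.1% for Itgb8, 43.1% and 24.8% for Itga6, and 47.1% and 36.8% for Itgb2. For Itgb7 the order turned with depth, from 63.4% in Mito-High and 59.4% in Mito-Low as measured to 29.7% and 35.1% after thinning, and so did that of Itgal, 52.2% and 50.5% as measured against 22.0% and 26.3% after thinning. As a possible background for free RNA, cells with at least 2 of 5 B cell markers were looked at. They numbered 34 in Mito-High with a median of 3936 UMIs. Itgae was seen in 0 of these 34, which allows a share of up to 8.82%, and Itgb8 in 2 (5.88%), so the unthinned Itgae share in Mito-High, 8.66%, is within what this count allows as background. The other 7 chains were seen in 26.5% (Itga6) to 50.0% (Itgb7 and Itga4) of them, with Itgav in 38.2% and Itgb1 in 32.4%. The Itga4 share of all Mito-High cells, 39.8%, did not exceed the share in these cells, and after thinning neither the Itga4 nor the Itgb1 share did (27.3% each in these cells). Of the 34 cells, 15 also carried at least 3 of 6 T cell markers. So did all 10 such cells in Mito-Low (median 6480.5 UMIs). Whether cells with B cell markers make these chains themselves was not tested, so their shares cannot be read as free RNA. No clean background could thus be had.

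Cell states were set by genes outside the integrin family. Effector cells had at least 2 of the 3 genes Ccl5, Il10 and Klrg1 detected, a chemokine, a suppressive cytokine and a receptor of differentiated T cells. Resting cells had at least 1 UMI of Igfbp4, and all remaining cells are called other. Effector cells numbered 165 (1.35%, 1.15 to 1.57) in Mito-High and 1530 (13.1%, 12.5 to 13.7) in Mito-Low. Resting cells numbered 2765 (22.6%, 21.9 to 23.4) in Mito-High and 185 (1.58%, 1.37 to 1.83) in Mito-Low, and 9281 and 9961 cells were other. Most cells of both libraries, 76.0% in Mito-High and 85.3% in Mito-Low, were thus other cells, and the order of the smaller states was opposite. Another 6 Mito-High and 3 Mito-Low cells met both rules and were left out. Calling a state from detected genes favours deep cells, and effector cells had a median of 8736 UMIs among Mito-High cells and 5288 among Mito-Low cells, whereas resting cells had 6402 and 5582.

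In both libraries the same 5 chains were higher in effector than in resting cells and Itga6 was lower. At least 1.5-fold higher were 5 of 9 members in Mito-High, where 24.1% of 7266 genes were, and 6 of 9 in Mito-Low, where 22.0% of 7357 genes were. Higher in both were 5 members (Itgae, Itga4, Itgb1, Itgav and Itgb8), against 13.1% of 6957 genes, and lower in both was 1 member, Itga6, against 4.38% (8.48% in Mito-High and 8.55% in Mito-Low taken alone). The members' median log2 ratio of effector over resting cells was 0.92 in Mito-High cells and 1.02 in Mito-Low cells, and that of all genes was 0.21 and 0.17. The 5 chains higher in effector cells are also the 5 that were lower in Mito-High. Mito-High had fewer effector cells than Mito-Low (1.35% and 13.1%) and more resting cells (22.6% and 1.58%). A cause of this overlap was not tested. Against the other cells, effector cells had 2 members at least 1.5-fold higher in Mito-High (Itgae and Itgav, 13.4% of genes) and 1 in Mito-Low (Itgb8, 3.35% of genes), and Itga6 was lower in both (5.79% and 1.97% of genes). Other cells over resting cells gave 4 higher members in Mito-High (Itgae, Itgb1, Itgav and Itgb8, 3.99% of genes) with 0 lower (0.506% of genes), and 6 higher in Mito-Low (15.2% of genes) with 1 lower, Itga6 (4.85% of genes). For Itgb1, Itga4, Itgav and Itgb8 the step between resting and other cells was larger than the step between other and effector cells in each library.

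**Figure D2:**
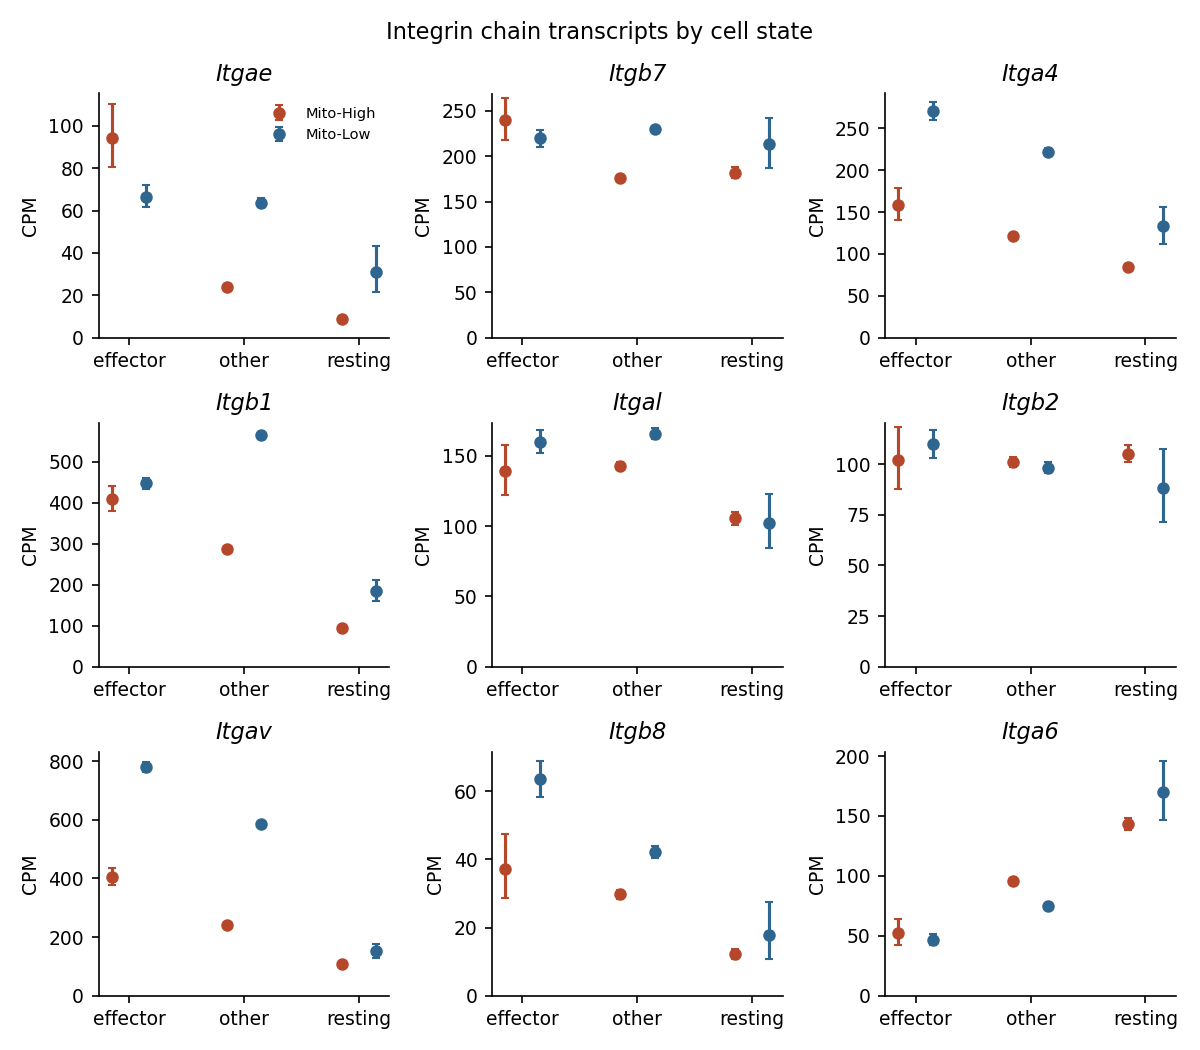
CPM of each integrin chain in effector, other and resting cells, 1 panel per gene with its own axis from 0, Mito-High left of Mito-Low, with 95% Poisson intervals. In both libraries Itgav is highest and Itga6 lowest in effector cells, and Itgae of Mito-High effector cells, at 94.5 CPM, is the highest Itgae value of the 6 groups.

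Itgae had the widest range between the states of Mito-High. There it measured 94.5 CPM (80.6 to 110.2) in effector, 24.0 CPM (22.8 to 25.2) in other and 8.95 CPM (7.72 to 10.3) in resting cells. In Mito-Low it measured 66.7 CPM (61.5 to 72.1) in effector, 63.8 CPM (61.6 to 66.0) in other and 31.2 CPM (21.7 to 43.4) in resting cells, the last from 35 UMIs. The log2 ratio of effector over resting cells was 3.40 (3.09 to 3.71) in Mito-High and 1.06 (0.60 to 1.63) in Mito-Low, and 5.07 and 1.40 among cells of 4000 to 6000 UMIs. In Mito-High the step from other to effector cells was 1.99 (1.74 to 2.21), and in Mito-Low it was 0.07 (-0.06 to 0.19). Its partner Itgb7 followed less, with 240.1 CPM in effector, 176 CPM in other and 182 CPM in resting cells of Mito-High, and 219.5, 229 and 213 CPM in those of Mito-Low. Taking the effector genes one at a time in Mito-High, Itgae measured 92.2 CPM in the 407 cells with Klrg1 and 18.4 CPM in cells without it, 54.4 and 19.5 CPM with and without Il10, and 35.5 and 20.9 CPM with and without Ccl5. In Mito-Low the contrast was largest for Il10, with 91.6 CPM in the 2492 cells with it and 54.8 CPM in cells without it, against 70.2 and 61.9 CPM for Klrg1 and 58.9 and 64.8 CPM for Ccl5.

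By CPM, Itgav and Itgb8 were ordered alike in both libraries, effector above other above resting. For Itgb8 in Mito-High, effector and other cells were not separated beyond counting error. There its log2 ratio of effector over other cells was 0.34 (-0.06 to 0.68), from 64 UMIs in effector cells. Itgav measured 406 CPM (376 to 437) in effector, 241 CPM (238 to 245) in other and 107 CPM (103 to 112) in resting cells of Mito-High. In Mito-Low it measured 780.3 CPM (763 to 798) in effector, 585 CPM (578 to 592) in other and 151 CPM (130 to 176) in resting cells. The log2 ratio of effector over resting cells was 1.92 in Mito-High and 2.36 in Mito-Low. Itgb8 measured 37.1, 29.7 and 12.2 CPM in effector, other and resting cells of Mito-High and 63.5, 42.1 and 17.8 CPM in those of Mito-Low, where the resting value rests on 20 UMIs. Its log2 ratio of effector over resting cells was 1.62 (1.19 to 2.01) in Mito-High and 1.76 (1.19 to 2.55) in Mito-Low.

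The Itgb1 level was lowest in resting cells of both libraries, but its highest level lay in different states. It measured 409 CPM (380 to 441) in effector, 287 CPM (283 to 291) in other and 94.6 CPM (90.5 to 98.8) in resting cells of Mito-High. In Mito-Low other cells, at 566 CPM (559 to 572), stood above effector cells, at 448 CPM (434 to 462), and resting cells had 184 CPM (160 to 211). The log2 ratio of effector over other cells was 0.51 (0.40 to 0.62) in Mito-High and -0.34 (-0.38 to -0.29) in Mito-Low. Itga4 measured 158, 122 and 83.9 CPM in effector, other and resting cells of Mito-High and 271, 222 and 133 CPM in those of Mito-Low. Its log2 ratio of effector over resting cells was 0.92 (0.73 to 1.10) in Mito-High and 1.02 (0.79 to 1.28) in Mito-Low, but in Mito-High it was 0.12 among cells of 4000 to 6000 UMIs, where only 31 effector cells remain. Itga6 measured 52.2 CPM (42.0 to 64.2) in effector, 95.9 CPM (93.5 to 98.3) in other and 143 CPM (138 to 149) in resting cells of Mito-High, and 46.6 CPM (42.3 to 51.2), 74.6 CPM (72.3 to 77.1) and 170.2 CPM (147 to 196) in those of Mito-Low. Its log2 ratio of effector over resting cells was -1.44 in Mito-High and -1.87 in Mito-Low.

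Of the LFA-1 chains, Itgb2 differed little across states and Itgal was lower in resting cells. Itgal measured 139, 143 and 106 CPM in effector, other and resting cells of Mito-High and 160.2, 166 and 102 CPM in those of Mito-Low, log2 ratios of effector over resting cells of 0.41 (0.20 to 0.59) and 0.63 (0.37 to 0.93). Itgb2 measured 102, 101 and 105 CPM in effector, other and resting cells of Mito-High and 109.8, 98.3 and 88.2 CPM in those of Mito-Low. Its effector over resting interval includes no difference in Mito-High (-0.27 to 0.18) and lies just above it in Mito-Low (0.02 to 0.63).

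Among cells of one state, part of the difference between the libraries was still present. Within effector cells, 3 of 9 members were at least 1.5-fold lower in Mito-High (Itga4, Itgav and Itgb8), where 12.4% of 7487 genes were. Within other cells there were 4 (Itgae, Itga4, Itgb1 and Itgav), against 8.81% of 7376 genes, and within resting cells 4 (Itgae, Itga4, Itgb1 and Itgb8), against 7.90% of 7017 genes. In each state 0 members were at least 1.5-fold higher, where 9.78%, 3.31% and 4.02% of genes were in effector, other and resting cells. The log2 ratio of Itgav was -0.94 (-1.06 to -0.83) within effector, -1.28 (-1.30 to -1.25) within other and -0.51 (-0.72 to -0.26) within resting cells. Itga4 gave -0.77, -0.87 and -0.67 in effector, other and resting cells. Itgb8 gave -0.75 (-1.17 to -0.40), -0.50 (-0.59 to -0.41) and -0.61 (-1.20 to 0.19), the last with an interval that includes no difference. Among cells of 4000 to 6000 UMIs Itgav came to -1.35 within resting cells, past the 1.5-fold mark, and among cells with a Foxp3 UMI Itgb8 came to -0.28 within effector cells, short of it.

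Itgae and Itgb1 gave unlike ratios in the 3 states. Within effector cells Itgae was higher in Mito-High (log2 ratio 0.51, 0.25 to 0.76), while it was lower within other (-1.41, -1.50 to -1.32) and resting cells (-1.83, -2.33 to -1.24). Among effector cells of 4000 to 6000 UMIs, the Itgae ratio was 1.32 (0.70 to 1.82). Itgb1 was nearly level within effector cells (-0.13, -0.25 to -0.01) and lower within other (-0.98) and resting cells (-0.97). Its ratio within effector cells turned to 0.48 (0.16 to 0.76) among the 31 Mito-High and 606 Mito-Low effector cells of 4000 to 6000 UMIs. Itga6 was higher in Mito-High within other cells (0.36, 0.30 to 0.42), lower within resting cells (-0.25, -0.46 to -0.03) and undecided within effector cells (0.18, -0.18 to 0.49), where it was 1.01 among cells of 4000 to 6000 UMIs. Itgb7, Itgal and Itgb2 stayed between -0.39 and 0.24 within all 3 states. Under the alternatives Itgb7 reached 0.64 within effector cells, among those of 4000 to 6000 UMIs, and Itgb2 reached 0.81 within resting cells, among those with a Foxp3 UMI. These intervals count molecules and not libraries, and no difference between states was tested.

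**Figure D3:**
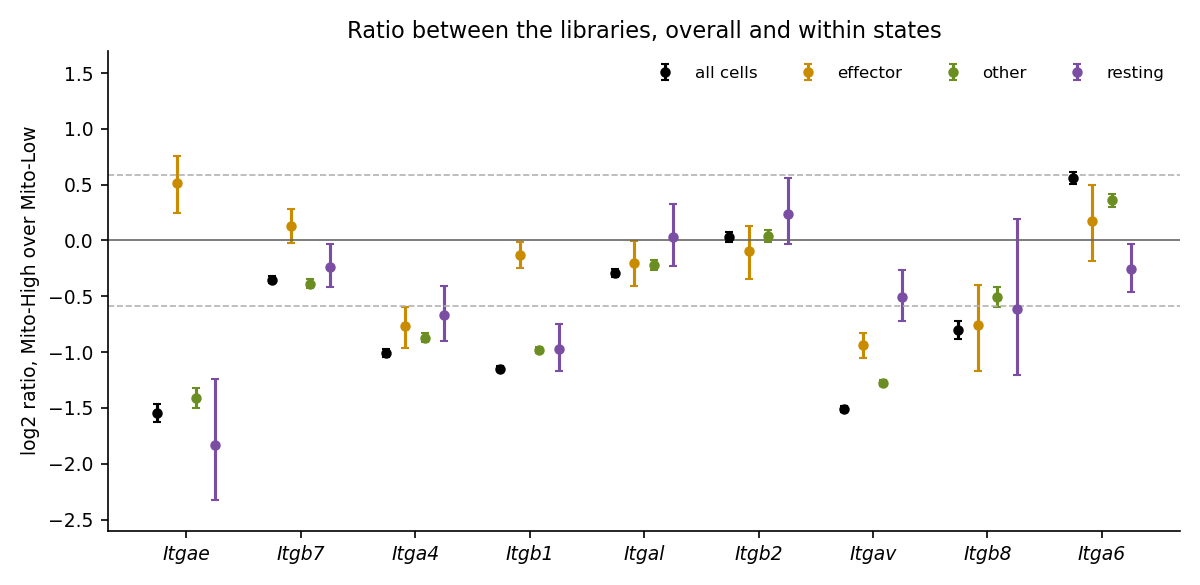
Log2 ratio of CPM, Mito-High over Mito-Low, for each integrin chain over all kept cells and within effector, other and resting cells, with 95% conditional-binomial intervals, a solid line at equality and dashed lines at 1.5-fold. The Itgae ratio within effector cells, 0.51, lies above the line, and its other 3 ratios lie below -1.4.

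Giving both libraries the same mix of states made the differences of 8 chains smaller, whichever library's mix was used. The log2 ratio of Itgb2, 0.03 as observed, was 0.02 at the mix of Mito-Low and 0.09 at that of Mito-High. With the states of Mito-High set to the mix found in Mito-Low, the log2 ratio was -1.20 for Itgav, -0.88 for Itgae, -0.85 for Itga4, -0.84 for Itgb1, -0.56 for Itgb8, -0.29 for Itgb7, -0.21 for Itgal and 0.32 for Itga6. With Mito-Low set to the mix of Mito-High, it was -1.19 for Itgav, -1.36 for Itgae, -0.83 for Itga4, -0.96 for Itgb1, -0.52 for Itgb8, -0.34 for Itgb7, -0.17 for Itgal and 0.14 for Itga6. Itgb8 was thus no longer past the 1.5-fold mark under either mix. With the 3 states given equal weight, Itgae came to -0.34, Itgb1 to -0.60 and Itgav to -1.01. Itgae thus differed most between the mix of Mito-Low and that of Mito-High (-0.88 and -1.36), and Itgav and Itga4 differed little between them. At the mix of Mito-High the largest change from the observed ratio was that of Itga6, from 0.56 to 0.14.

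The resting cells of Mito-Low stood apart in a further transcript. Gm42418, a gene that overlaps ribosomal RNA sequence, measured 1373 CPM in Mito-High resting cells and 8762 CPM in Mito-Low resting cells, against 1458 and 4016 CPM over all cells. Without cells with over 1% of UMIs from Gm42418, 134 of the 185 Mito-Low resting cells remained. Within resting cells the log2 ratio between the libraries was then -1.85 for Itgae, -0.99 for Itgb1, -0.84 for Itgb8 and -0.60 for Itgav, but -0.23 (-0.53 to 0.13) for Itga4. Among resting cells with a Foxp3 UMI, 471 in Mito-High and 32 in Mito-Low, the log2 ratio was -2.14 for Itgae and -0.98 for Itgb1. The share of all genes past the 1.5-fold mark was not counted in these cells. In these cells Itga4 gave -0.28 (-0.83 to 0.45) and Itgb8 gave -0.02, so both were no longer past the 1.5-fold mark.

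Levels were also followed by the number of state genes found in a cell. Among cells without Igfbp4, Itgav measured 218, 368, 405 and 412 CPM with 0, 1, 2 and 3 effector genes in Mito-High and 532, 673, 773 and 816 CPM in Mito-Low. Itgae measured 19.1, 50.7, 93.0 and 105 CPM in Mito-High, whereas in Mito-Low it peaked at 1 effector gene, with 51.4, 84.3, 69.6 and 52.3 CPM. Itgb1 measured 254, 464, 407 and 426 CPM in Mito-High and 572, 555, 459 and 391 CPM in Mito-Low. The Mito-High cells with all 3 genes number 23, and their Itgae interval is 66.8 to 158 CPM. Itgav was thus higher with each further effector gene in Mito-Low and up to 2 of them in Mito-High, and the Itgae and Itgb1 levels of Mito-Low were lowest or close to lowest where all 3 genes were found. Itga6 measured 101, 69.9, 50.5 and 64.1 CPM in Mito-High and 83.0, 60.8, 48.8 and 35.9 CPM in Mito-Low.

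By Igfbp4, the largest step of Itgb1, Itgav and Itga6 lay between no UMI and 1 UMI. Among cells that were not effector cells, Itgb1 measured 287, 116, 76.4 and 82.2 CPM with 0, 1, 2 and at least 3 Igfbp4 UMIs in Mito-High and 566, 231, 182 and 89.7 CPM in Mito-Low. Itgav measured 241, 127, 103 and 89.0 CPM in Mito-High and 585, 190, 144 and 78.5 CPM in Mito-Low, lower at each step. Itga6 measured 95.9, 138, 137 and 152 CPM in Mito-High and 74.6, 177, 158 and 168 CPM in Mito-Low. At 3 or more Igfbp4 UMIs, Itgav and Itgb1 of Mito-High and Mito-Low had overlapping counting intervals, with 1013 and 40 cells. Itgae measured 24.0, 11.5, 8.04 and 6.79 CPM with 0, 1, 2 and at least 3 Igfbp4 UMIs in Mito-High. In Mito-Low it showed no steady order, with 63.8, 30.2, 58.4 and 3.74 CPM, the last 3 from 17, 17 and 1 UMIs.

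**Figure D4:**
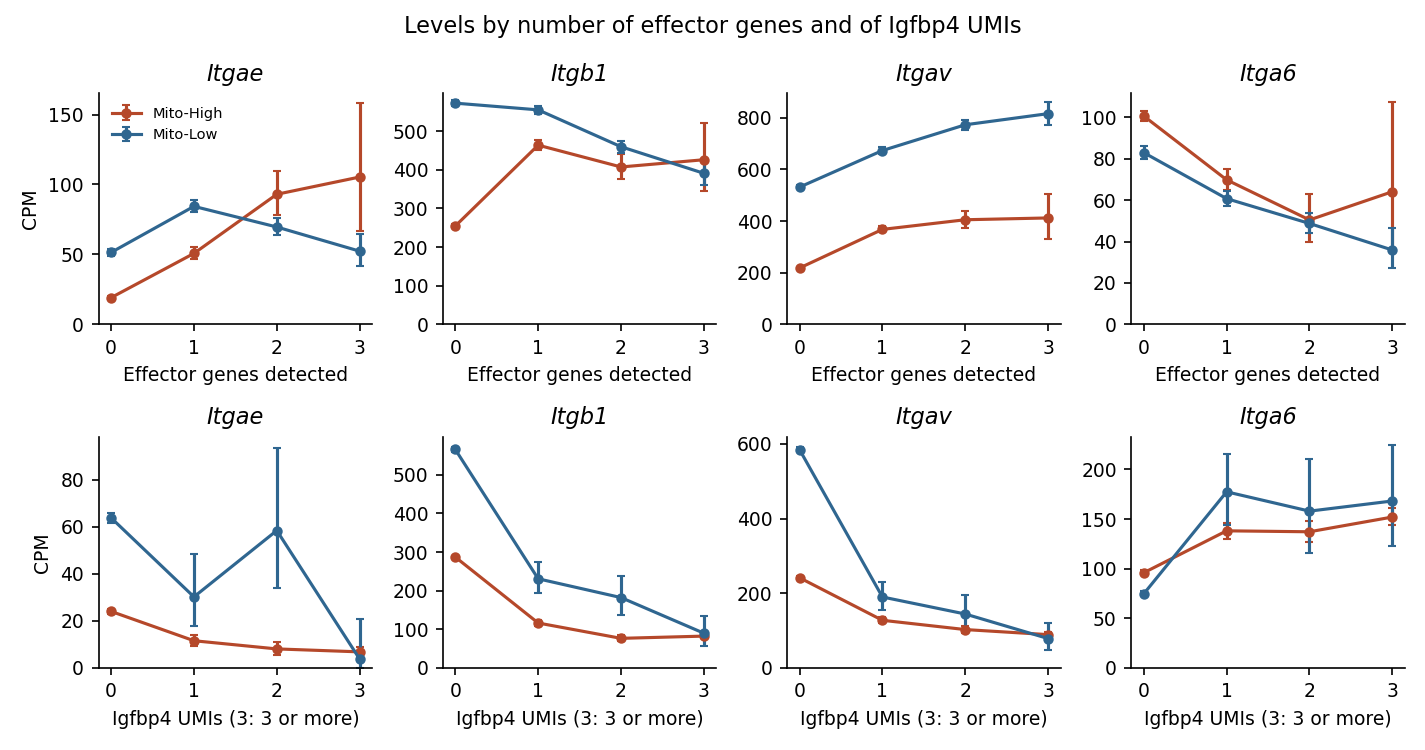
CPM of 4 chains (Itgae, Itgb1, Itgav, Itga6) by the number of effector genes detected (upper row) and by Igfbp4 UMIs (lower row), for Mito-High and Mito-Low, with 95% Poisson intervals. Itgav runs from 218 to 412 CPM in Mito-High and from 532 to 816 CPM in Mito-Low along the upper row, and the curves of the libraries come together at 3 or more Igfbp4 UMIs.

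Chains of a pair must occur in the same cell to form a receptor, so detection of both was counted after thinning to 2000 UMIs. Both Itgav and Itgb8 were found in 1.62% (1.41 to 1.86) of Mito-High cells and 4.89% (4.50 to 5.31) of Mito-Low cells, 1.60 and 1.22 times the product of the single shares. Itgb8 was found in 6.70% of Itgav-positive and 3.40% of Itgav-negative cells of Mito-High and in 8.81% and 5.18% of those of Mito-Low. Both Itgae and Itgb7 were found in 1.33% of Mito-High cells and 4.01% of Mito-Low cells, 1.28 and 1.12 times the product. Itgb7 was found in 37.9% (33.3 to 42.7) of 425 Itgae-positive Mito-High cells, against 29.4% of Itgae-negative ones. In Mito-Low the figures were 39.3% of 1143 Itgae-positive and 34.6% of Itgae-negative cells. As measured, Itgb7 was found in 75.0% of Itgae-positive and 62.3% of Itgae-negative Mito-High cells and in 67.8% and 57.5% of those of Mito-Low, so how many Itgae-positive cells show an Itgb7 UMI depends on depth. The ratio to the product as measured was 1.55 and 1.19 for Itgav with Itgb8 and 1.18 and 1.14 for Itgae with Itgb7 in Mito-High and Mito-Low.

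The pairs that share Itga4 or Itgb1 were less regular. Itga4 and Itgb7 were found together in 5.20% of Mito-High cells, where the product is 5.18%, and in 9.95% of Mito-Low cells, where it is 10.6%. Itga4 and Itgb1 were found together in 4.69% and 16.3%, 1.09 and 1.03 times the product. Within Mito-Low effector cells Itgb7 was found in 26.9% (23.2 to 30.8) of Itga4-positive and 38.3% of Itga4-negative cells, but as measured in 62.8% and 64.1%. Itgav and Itgb1 were found together in 9.62% of Mito-High cells and 28.9% of Mito-Low cells, 1.62 and 0.99 times the product. In Mito-High the share with both was 3.16% against a product of 1.59% within resting cells and 27.9% against 28.1% within effector cells. Itga6 and Itgb1 were found together in 3.65% of Mito-High cells, 0.80 times the product, and in 6.19% of Mito-Low cells, 0.96 times. Itgal and Itgb2 were found together in 4.21% of Mito-High cells and 4.98% of Mito-Low cells, 1.07 and 1.09 times the product. Shares of cells mix states and depths of a library, and these ratios to the product are descriptions. Both Itgav and Itgb8 were found in 0 of 180 thinned Mito-Low resting cells, which allows a share of up to 1.67% at that depth. As measured, both were found in 8 of 185 such cells (4.32%, 1.89 to 8.34), 2.45 times the product.

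**Figure D5:**
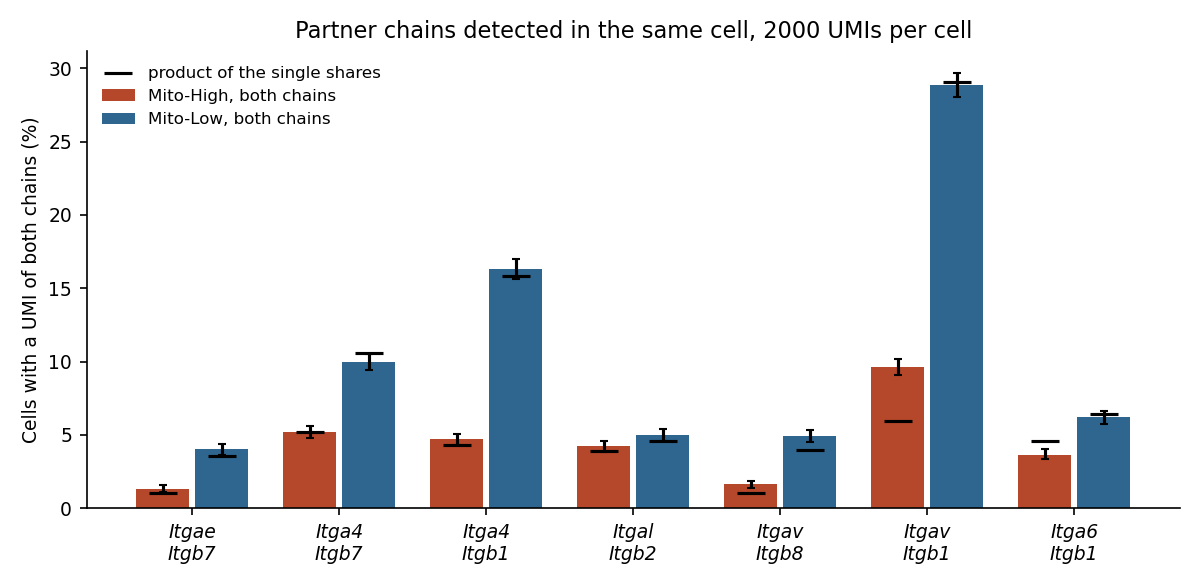
Percent of cells with a UMI of both chains of a pair after thinning each cell to 2000 UMIs, Mito-High left of Mito-Low, with 95% Clopper-Pearson intervals and a mark at the product of the single shares. Itgav with Itgb1 lies above its mark in Mito-High (9.62% against 5.96%) and on it in Mito-Low (28.9% against 29.0%).

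Of the 17 other integrin chain genes in the files, Itgb3 alone passed the filter of 10 CPM. Itgb3, a further partner of Itgav, measured 9.38 CPM in Mito-High cells, against 15.2 CPM in Mito-Low cells. Its log2 ratio was -0.69 (-0.83 to -0.56), past the 1.5-fold mark. It was 20.9 CPM (14.6 to 28.9, 36 UMIs) in effector and 9.61 CPM in resting cells of Mito-High. In Mito-Low it was 20.4 CPM in effector and 16.9 CPM (10.2 to 26.4, 19 UMIs) in resting cells. The remaining 16 were below the filter, Itgam at 0.83 and 0.26 CPM and Itgax at 2 and 0 UMIs in Mito-High and Mito-Low among them.

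Genes that act on or beside integrins were taken from 5 lists, with the same 1.5-fold mark. Of the integrin activation list, 17 of 20 genes passed the filter, 1 was lower in Mito-High, 0 were higher, and the median log2 ratio was -0.16. That gene was Dok1, an adaptor that binds beta chain tails, at 9.36 CPM in Mito-High cells, against 14.3 CPM in Mito-Low cells. Talin (Tln1), which switches integrins on, had 183 CPM in Mito-High cells, against 247 CPM in Mito-Low cells (log2 ratio -0.43), Rapgef1, an activator of Rap1, had -0.41, and Rasgrp2, another such activator, had 0.58. Of the adhesion complex list, 14 of 20 were measured, 0 lower and 1 higher, with a median of -0.10. Actn1, an actin crosslinker, was the higher one, with 76.4 CPM in Mito-High cells, against 29.4 CPM in Mito-Low cells (1.38), and Nedd9, Pxn and Git2 had -0.39, -0.38 and -0.20. Both medians lay close to the -0.15 of all genes.

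Ligands and other surface molecules showed larger values in few genes. Of 16 ligand genes only 3 were measured, 2 lower and 0 higher, with a median of -0.82. Lamc1, a laminin chain, had 29.6 CPM in Mito-High cells, against 92.7 CPM in Mito-Low cells (-1.65), Icam1 had 28.6 and 50.5 CPM (-0.82), and Icam2 had -0.05. Of the TGF-beta list, 12 of 18 were measured, 2 lower and 1 higher, with a median of -0.05. Smad3, a signal carrier of the TGF-beta receptor, had -0.85, Lrrc32, the GARP protein that holds latent TGF-beta on Treg cells, had 58.3 CPM in Mito-High cells, against 98.6 CPM in Mito-Low cells (-0.76), the cytokine gene Tgfb1 had -0.50, and the co-receptor gene Tgfbr3 was higher (1.10). Of other adhesion receptors and tetraspanins, 15 of 16 were measured, 3 lower (Alcam -1.08, Cd82 -0.89, Cd44 -0.60) and 1 higher, with a median of -0.35.

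Genes with the most similar pattern over the 6 groups of library and state were ranked among 5428 genes by the root mean square difference of centred log2 values, where smaller is closer. For Itgae these were Sdcbp2 (0.34), Lamc1 (0.35) and Slc22a15 (0.36), the least close matches of any member. For Itgb1 they were Ccr4 (0.18), a chemokine receptor of skin homing T cells, Cxcl10 (0.20) and Zdhhc2 (0.22). Itgav was closest to Gm13684 (0.09), the transcript on its opposite strand, followed by Ptprj (0.15) and Tshz2 (0.15). For Itgb8 they were Cd82 (0.15), Adora2a (0.16) and Tnfrsf1b (0.18), for Itga4 Nol10 (0.05), Stat4 (0.06) and Syt11 (0.08), and for Itga6 Galnt10 (0.07), Txk (0.09) and Rras2 (0.11). Itgb7, Itgal and Itgb2 had close matches in Wbp1l (0.05), Cdc14a (0.05) and Rptor (0.04), with Rif1, Vcpip1, Nampt, Zc3h12d and Wdr36 among the next. The 6 groups share 2 libraries, so this likeness is a description.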

How the data were processed

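Single-cell RNA was measured in 2 sorted groups of Treg cells, 1 library each. Each deposited file holds unnormalised UMI counts, by gene and cell barcode, per the file headers. Cell Ranger 7.1.0, Seurat 4.3.0.1 and mm10 are named in the submitters' processing notes. The sources used here give neither the annotation release nor the handling of introns, strand and empty barcodes. The Mito-High library holds more barcodes, 12352, than the 12000 cells given as loaded.

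Barcodes with at least 500 genes and at most 20% mt- UMIs were kept. In Mito-High 120 barcodes failed on genes and 15 on mt- share, and in Mito-Low 209 and 13. No doublet caller was run and no doublets were removed, so cells of high depth or of both states may be pairs of cells. Empty droplets were not analysed here, so free RNA was not measured in them. UMIs were summed per library and state and scaled to 1000000 (CPM). Log2 ratios used a pseudocount of 1 UMI. Sums have exact Poisson, ratios conditional-binomial and shares Clopper-Pearson intervals, all 95% and for counting error only. UMI counts are molecules, and reads behind them are not used. Beside a count of 0 stands the share that 3 counts would give. A fold of 1.5 at a mean of 10 CPM describes size, and no test was possible with 1 library per group. Scripts were tested on simulated data.

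The named genes are the 9 members, other integrin chains at 10 CPM or more, up to 4 members of each of 5 lists with the largest absolute log2 ratio, and the 3 nearest genes of each member at 20 CPM or more. Some genes that this rule names are not reported here. Members and lists were chosen with earlier results of these data known. Gene positions are those of GENCODE M21 and promoters those of RefSeq. Alternatives covered scaling (edgeR 4.0.16 TMM under R 4.3.3), cell and gene filters, thinning to 2000 UMIs, cells of 4000 to 6000 UMIs, the weight of states and the state rules. Cells with a Foxp3 UMI, cells with at most 1% Gm42418 and the depth window within states were chosen after seeing the data. Python 3.11.15, numpy 2.4.6, scipy 1.17.1 and pandas 2.3.3 were used.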

Additional observations from a re-analysis of the deposited data

Results flagged for a closer look

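Some ratios had opposite signs in groups set side by side, and none of these differences was tested. Between the libraries, Mito-High over Mito-Low, the log2 ratio of Itgae was 0.51 within effector cells, against -1.41 within other cells and -1.83 within resting cells. The log2 ratio of effector over other cells for Itgb1 was 0.51 in Mito-High and -0.34 in Mito-Low. Between the libraries, the log2 ratio of Itga6 was 0.36 within other cells and -0.25 within resting cells.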

How the results depend on the processing

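The count of members at least 1.5-fold lower in Mito-High, 5, was 4 to 5 over 16 alternatives, with 4 where the states were weighted alike (Itgae -0.34). With the states of one library set to the mix of the other, Itgb8 was not past the mark either way (-0.56 and -0.52). The count of members at least 1.5-fold higher, 0, was 1 (Itga6) under thinning to 2000 UMIs, in cells of 4000 to 6000 UMIs, under TMM scaling, with the median ratio set to 0, with mt-, ribosomal and antigen receptor genes taken out of the total, with the mean of each cell's CPM, and without cells with over 1% Gm42418. The Itga6 log2 ratio ran up to 0.83 and was -6.17e-05 with the states weighted alike. TMM raised all ratios between the libraries by 0.19 on the log2 scale, the median setting by 0.14 and the reduced total by 0.13. The count of members lower within resting cells, 4, was 2 among cells with a Foxp3 UMI, where the share of all genes was not counted. The counts higher and lower in effector than in resting cells of both libraries were 5 to 6 and 1 over 12 alternatives, but among cells of 4000 to 6000 UMIs and among cells with a Foxp3 UMI Itgal stood in place of Itga4 (0.12 and 0.33 in Mito-High). The cause was not tested in any of these. No ratio past 1.5-fold changed its sign. Shares of cells depend on depth, and the states with few cells, 165 Mito-High effector and 185 Mito-Low resting cells, limit the ratios within states. No paired analysis was possible because each group has 1 library.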
